A study of Mus musculus with 2 samples.

Results

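The syntrophins, the dystrophin complex and the channels that this complex holds in place were followed through single-cell RNA-seq of the mouse retina. The set comprised 9 of the 25778 genes in the count table, namely Sntg1, Sntg2, Sntb1, Sntb2, Dmd, Dtna, Dag1, Aqp4 and Kcnj10. Sntg1 was chosen by its level in Müller glia (MG), which was higher in the Ptbp1-KO library than in the Ptbp1-Ctrl library. That difference is therefore a description of the choice and not a finding. The other 8 genes were taken for what they encode, as its family, its complex and 2 channels. Ptbp1-Ctrl mice carried Chx10-Cre alone, and Ptbp1-KO mice carried Chx10-Cre;Ptbp1lox/lox, so the Cre transgene, which is active in retinal progenitors, was present in both genotypes. Whole retina of 1 mouse per genotype, aged 30 days, was dissociated with papain and captured with the 10x 3′ version 3.1 chemistry. With 1 library per genotype no difference has a replicate check, and the animal, the dissociation, the library and the genotype cannot be told apart.

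Syntrophins are cytoplasmic adaptor proteins with a PDZ domain, a pocket that grips the last residues of channels and signalling proteins. They ride on dystrophin and dystrobrevin, which in turn are tied through dystroglycan to laminin and other matrix proteins outside the cell. In Müller glia, the radial glia of the retina, this complex is known for holding the water channel Aqp4 and the potassium channel Kcnj10 at the endfeet, while in photoreceptors dystrophin and dystroglycan serve the ribbon synapse. The gamma syntrophins, Sntg1 and Sntg2, form the more distant branch of the family.

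The libraries held 16421 and 14522 cells, with medians of 1442 and 1740 unique molecular identifiers (UMIs) per cell in Ptbp1-Ctrl and Ptbp1-KO, and 63 cell barcodes occurred in both. MG numbered 1720 and 1184 cells, with medians of 3333 and 4178 UMIs. The 5 MG markers Glul, Rlbp1, Sox9, Slc1a3 and Apoe summed to 21974 and 22839 CPM in cells named MG, where CPM counts a gene's UMIs in every 1000000 UMIs of that cell type and library. In rods, cones, bipolar cells (BC) and amacrine cells (AC) the same sum lay between 185 and 623 CPM. Ptbp1, the targeted gene, gave 294 UMIs in Ptbp1-Ctrl MG and 6 in Ptbp1-KO MG, and its paralog Ptbp2 stood at 203 and 308 CPM there. Ptbp1 UMIs also numbered 255 and 4 in rods and 204 and 1 in BC. The study's methods describe female mice, but the Y-linked genes Uty and Eif2s3y gave 6164 and 5807 UMIs in the Ptbp1-Ctrl library and 7085 and 6983 in the Ptbp1-KO library, against 5 and 6 UMIs of Xist. All intervals below are at 95% and cover counting error only.

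The PDZ loop that receives a channel's tail shows how the syntrophins differ, and it is given here as the coding bases of the longest complete transcript in GENCODE M21 (mm10), 5′ to 3′ on the coding strand, with the 4 codons of the loop in capitals.
Sntg1: acagtaggaGGATTCGGATTAagcataaag
Sntg2: cctgtgggtGGCCTGGGCCTAagtatcaag
Sntb1: gagctgggcGGGCTGGGCATTagcatcaaa
Sntb2: gaggcgggcGGCCTGGGCATCagcatcaag

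These stretches lie at chr1:8681973-8682002 (minus strand), chr12:30307327-30307356 (minus), chr15:55906211-55906240 (minus) and chr8:106936105-106936134 (plus), each within 1 coding exon. Over the 30 bases shown, Sntg1 differed from the other 3 sequences at 11 to 14 positions, and the beta syntrophins Sntb1 and Sntb2 differed from each other at 5. Within the 12 capital bases Sntg1 differed from Sntg2 at 5 and from Sntb1 and Sntb2 at 6 each, while Sntb1 and Sntb2 differed from each other at 2. Sntg2 differed from Sntb1 at 3 and from Sntb2 at 2 of these bases, and at 10 and 8 of the 30.

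Kcnj10 ends in a tail that PDZ domains of this kind bind, and Dag1 ends close to a stretch that dystrophin binds. The capitals mark the last 3 codons before the stop codon in Kcnj10, and the 4 codons of the dystrophin-binding motif in Dag1.
Kcnj10: gcccttagtgtgcgcatcAGCAACGTCtga
Dag1: taccgatcaCCCCCTCCGTATgttccccct

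The stretches lie at chr1:172370031-172370060 (plus strand) and chr9:108207262-108207291 (minus strand) of mm10. The deposited values are gene counts from the 3′ end of transcripts, so the levels that follow do not separate isoforms of any of these genes, the short dystrophins of the retina included.

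Sntg1 encodes gamma-1 syntrophin, which is known mainly from neurons. It lies on the minus strand at chr1:8361475-9299878. In MG it gave 190 UMIs in the control and 1038 in the knockout, or 32.2 CPM (27.8 to 37.1) and 204 CPM (192 to 217), for a log2 ratio of 2.67 (2.44 to 2.90). The intervals lie far apart. After subtraction of an estimate of free RNA the log2 ratio was 3.28, and under the other 6 ways of summing or scaling the cells it lay between 2.64 and 2.88. In the annotation 14 genes overlap Sntg1, none of them protein coding, and the count table held 0 of them. Its nearest coding neighbours Pcmtd1 and Rrs1 had log2 ratios of −0.26 and −0.29 in MG.

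AC were the cell type with the highest Sntg1 level in both libraries, at 446 CPM (417 to 476) in Ptbp1-Ctrl against 528 CPM (505 to 552) in Ptbp1-KO. The order in Ptbp1-Ctrl was AC, BC, MG, rods and cones, and the intervals of BC and MG overlapped, as did those of rods and cones. In Ptbp1-KO MG stood second, above BC, and the intervals of rods and cones alone overlapped. BC stood at 37.7 CPM (33.9 to 41.7) and 53.1 CPM (48.8 to 57.8), for a log2 ratio of 0.50 (0.30 to 0.69). Rods were lower, at 6.98 and 11.4 CPM, with a log2 ratio of 0.71 (0.33 to 1.09). Cones held 7 and 8 Sntg1 UMIs, too few to tell the libraries apart. In AC the log2 ratio was 0.24 (0.13 to 0.36). Without the estimated free RNA the log2 ratio was −0.10 in BC, and in the main AC cluster alone it was −0.08. In rods it stayed above 0 under all 7 alternatives, from 0.45 to 1.01. Ganglion cells (RGC) gave 27 and 19 Sntg1 UMIs and horizontal cells (HC) 14 and 14, in Ptbp1-Ctrl and Ptbp1-KO respectively.

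**Figure D1:**
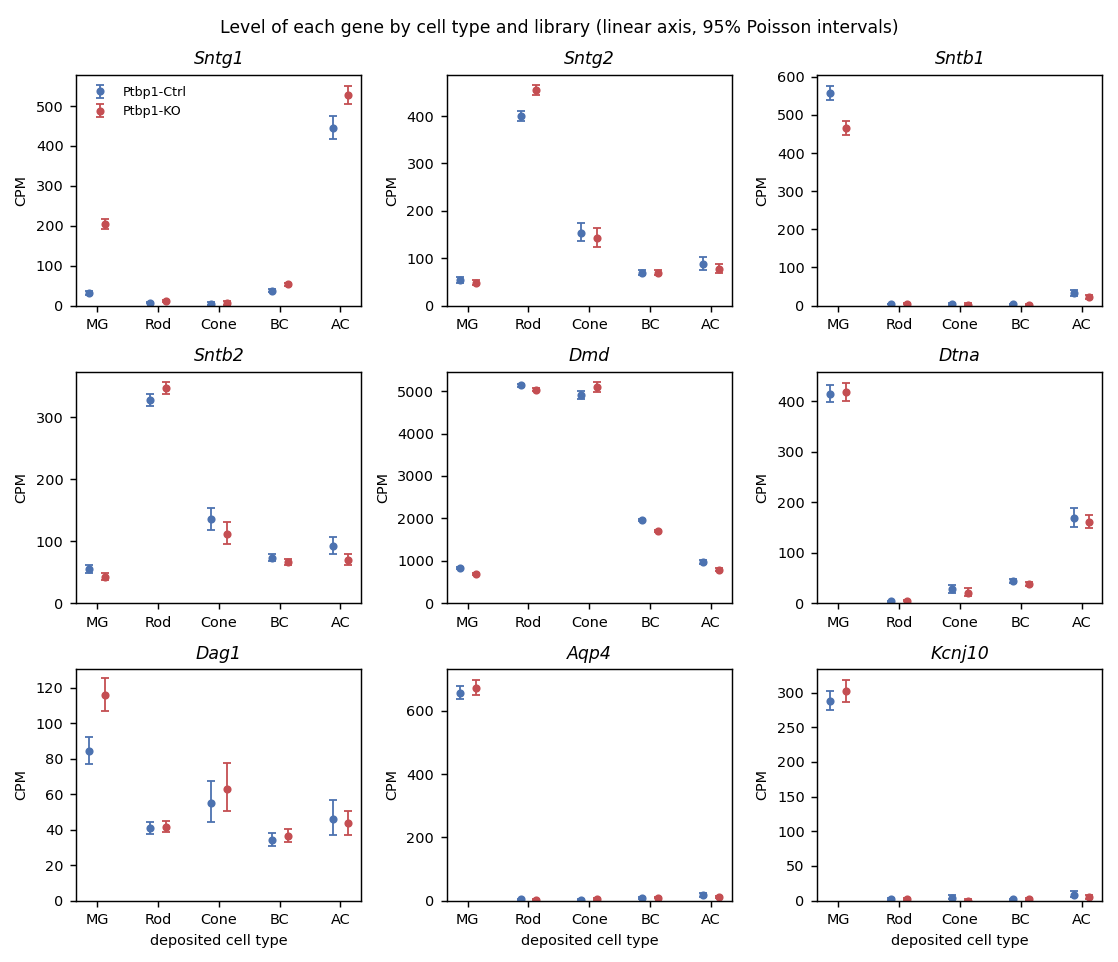
CPM of the 9 genes (linear axes from 0, a different scale in each panel) in Müller glia (MG), rods, cones, bipolar cells (BC) and amacrine cells (AC) of the Ptbp1-Ctrl (blue) and Ptbp1-KO (red) library, with exact 95% Poisson intervals over UMIs. Sntg1 in MG stood at 32.2 and 204 CPM, whereas Aqp4 and Kcnj10 in MG overlapped between the libraries.

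Because droplets also catch free RNA, the Sntg1 level in MG was set beside that of AC markers. The markers Tfap2a, Tfap2b, Gad1, Slc32a1 and Slc6a9 stood in MG at 0.334% to 1.94% of their AC level in Ptbp1-Ctrl, and at 0.671% to 2.94% in Ptbp1-KO. Pax6, the sixth marker on that list, stood at 93.4% and 99.2% of its AC level and does not separate the cell types. Sntg1 stood at 7.22% and 38.7% of its AC level, above all 5 markers in both libraries. The Sntg1 values are those that chose the gene, and the part of AC RNA in them was not tested. In BC Sntg1 was at 8.46% and 10.1% of its AC level, again above all 5 markers, and in rods 1 of the 5 markers was at or above it.

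All 3 deposited MG clusters showed the difference. Cluster 4, with 1386 and 994 cells, stood at 32.1 and 200.2 CPM, for a log2 ratio of 2.64 (2.40 to 2.89). Cluster 16, with 245 and 136 cells, stood at 29.7 and 298 CPM, and cluster 22, with 89 and 54 cells, at 34.4 and 187 CPM. Both smaller clusters also carried markers of neurons. Rod markers summed to 12854 and 8254 CPM in cluster 16, against 5943 and 4843 CPM in cluster 4. BC markers summed to 3642 and 4793 CPM in cluster 22, against 615 and 703 CPM in cluster 4. The part of those neurons' RNA in the ratios of clusters 16 and 22 was not tested. Cluster 4 held 161 of the 190 Sntg1 UMIs of MG in Ptbp1-Ctrl and 893 of the 1038 in Ptbp1-KO. Its log2 ratio therefore had to lie close to that of all MG.

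AC clusters differed from each other, and so did their shares of the cells, since clusters 6, 14 and 15 held 293, 223 and 160 AC in Ptbp1-Ctrl but 478, 214 and 253 in Ptbp1-KO. Cluster 6 held the highest Sntg1 level of any cluster in these 5 cell types, at 670 CPM (616 to 727) in Ptbp1-Ctrl against 633 CPM (598 to 670) in Ptbp1-KO, and these intervals overlapped. Cluster 14 stood at 231 and 443 CPM, for a log2 ratio of 0.94 (0.67 to 1.21), and cluster 15 at 336 and 404 CPM. BC clusters were unequal as well. From 3.25 to 101 CPM of Sntg1 were found among the 10 BC clusters in Ptbp1-Ctrl and from 5.05 to 125 CPM in Ptbp1-KO, with cluster 5 lowest in both. Sntg1 was higher in Ptbp1-KO in 9 of the 10, with a counting interval above 0 in 5. Of the 10, clusters 5, 10, 13, 19 and 20 held between 5 and 21 Sntg1 UMIs in a library.

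**Figure D2:**
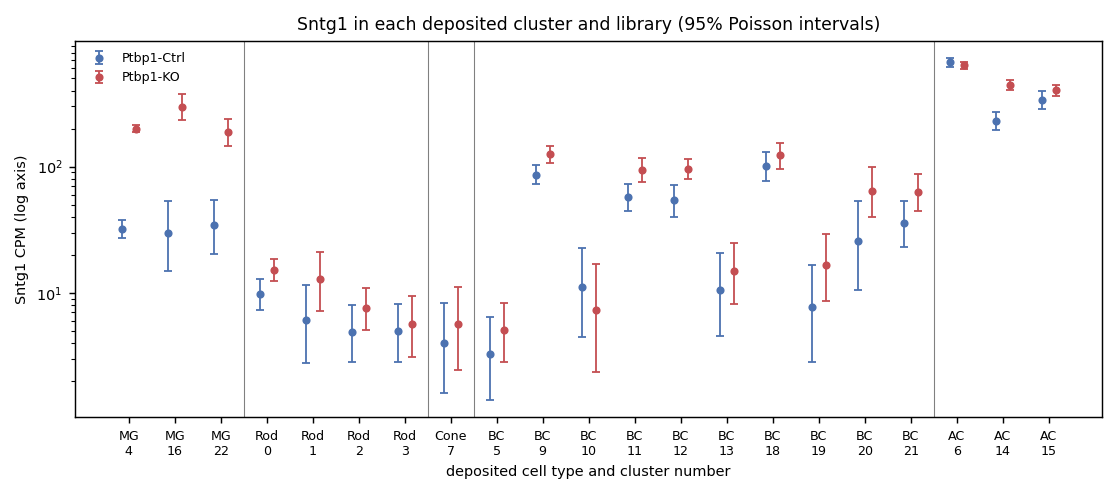
Sntg1 CPM (log axis) in every deposited cluster of 5 cell types, Ptbp1-Ctrl in blue and Ptbp1-KO in red, with exact 95% Poisson intervals. The 3 MG clusters show separated libraries, at 29.7 to 34.4 CPM in Ptbp1-Ctrl and 187 to 298 CPM in Ptbp1-KO, while AC cluster 6 overlaps.

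Sntg1 UMIs were spread over many MG. At equal depth, with each cell thinned to 1000 UMIs, 2.59% of Ptbp1-Ctrl MG (1.88 to 3.47) and 17.1% of Ptbp1-KO MG (15.0 to 19.4) held a Sntg1 UMI. Without thinning the shares were 7.38% and 44.0%. Rods, which are nearly devoid of Sntg1, held a UMI in 0.644% and 1.15% of cells at the same thinned depth, and their median depths were 1088 and 1288 UMIs. The thinned Ptbp1-KO MG comprised 156 cells with 1 UMI, 36 with 2 and 9 with 3 or more, of 1173 cells. A Poisson distribution of the same mean has 80.1% of cells at 0, and 82.9% were observed. The highest single cell held 3.16% of the unthinned Sntg1 UMIs of Ptbp1-Ctrl MG and 0.963% of those of Ptbp1-KO MG. Fewer cells with the transcript and less transcript per cell are not separated by shares this low.

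**Figure D3:**
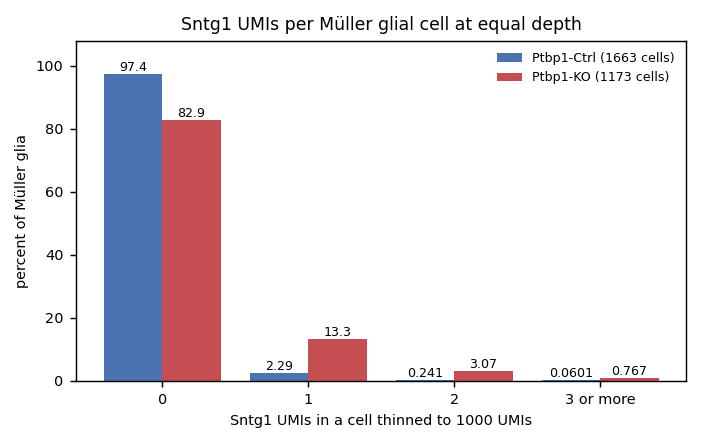
Percent of Müller glia with 0, 1, 2 or 3 and more Sntg1 UMIs after each cell was thinned to 1000 UMIs, in 1663 Ptbp1-Ctrl cells (blue) and 1173 Ptbp1-KO cells (red). Cells at 0 made up 97.4% and 82.9%.

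The genes whose level was most like that of Sntg1 over the 10 sums (5 cell types in 2 libraries) were Pdgfd (Pearson r of 0.982 on log2 of CPM plus 5), Lrrn3 (0.980) and Zfp52 (0.977), among 13360 genes with at least 200 UMIs. The sums share their libraries and cell types, so these values describe likeness alone. Pdgfd, a growth factor, stood at 14.2 and 44.8 CPM in MG and at 162 and 177 CPM in AC. Lrrn3 encodes a leucine-rich repeat membrane protein, and it stood at 32.8 and 52.9 CPM in MG.

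Sntg2, the other gamma syntrophin, had a different distribution, with rods highest. It gave 400 CPM (389 to 411) in Ptbp1-Ctrl rods against 455 CPM (444 to 466) in Ptbp1-KO rods, for a log2 ratio of 0.19 (0.13 to 0.24). Each rod cluster by itself had a lower ratio. It was 0.14 in cluster 0, 0.16 in cluster 1, 0.004 in cluster 2 and −0.26 (−0.48 to −0.05) in cluster 3. Cluster 0 held 4614 of 10058 rods in Ptbp1-Ctrl and 5462 of 9301 in Ptbp1-KO. The part of the cluster mix in the ratio of all rods was not tested. The median of all tested genes in rods was 0.07, and scaling by TMM, which discounts genes that differ most, shifted every rod ratio by −0.09 on the log2 scale. Cones, AC, BC and MG followed rods in that order in both libraries, for Sntg2 as well as for Sntb2, and the intervals of AC and BC alone overlapped, in Ptbp1-KO. In MG Sntg2 stood at 53.2 and 48.4 CPM, with a log2 ratio of −0.14 (−0.38 to 0.11), so the libraries were not told apart. Those MG levels were 13.3% and 10.6% of the rod level, below all 6 rod markers in MG, which stood at 14.9% to 16.6% and 12.1% to 15.3%. The part of rod RNA in the Sntg2 level of MG was not tested.

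Sntb1, beta-1 syntrophin, was a gene of MG. It stood at 558 CPM (539 to 577) in Ptbp1-Ctrl MG against 465 CPM (447 to 485) in Ptbp1-KO MG, for a log2 ratio of −0.26 (−0.34 to −0.18). The intervals do not overlap, and all 3 MG clusters were lower in Ptbp1-KO. MG held 95.6% and 92.8% of the Sntb1 UMIs of the 5 cell types. AC followed at 32.2 and 22.0 CPM, at 5.77% and 4.73% of the MG level, where MG markers in AC ranged up to 4.55% and 4.61%. Rods, cones and BC lay between 2.05 and 5.04 CPM.

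Sntb2, beta-2 syntrophin, was highest in rods, at 328 CPM (318 to 338) and 348 CPM (338 to 357). Its log2 ratio of 0.08 (0.02 to 0.14) there became −0.01 with TMM scaling. Sntb2 had a log2 ratio between −0.08 and 0.08 in the 4 rod clusters, and all 4 counting intervals included 0. In MG it stood at 55.2 and 42.9 CPM, for a log2 ratio of −0.36 (−0.62 to −0.11), at 16.8% and 12.3% of the rod level, where the highest rod marker was at 16.6% and 15.3%. The 6 rod markers had their own summed level in MG at 6238 CPM in Ptbp1-Ctrl against 4868 CPM in Ptbp1-KO, and the part of rod RNA in the MG ratios was not tested. Once the estimated free RNA was subtracted, at least 1 library had no Sntg2, Sntb2 or Dmd left in MG, so no ratio could be formed.

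Dmd, which encodes dystrophin, the link between the actin skeleton and dystroglycan, lies on the plus strand at chrX:82948870-85206141. Photoreceptors held most of it. Rods stood at 5136 CPM (5098 to 5175) and 5030 CPM (4994 to 5067), for a log2 ratio of −0.03 (−0.05 to −0.01). Cones stood at 4910 CPM (4807 to 5015) and 5107 CPM (4990 to 5226), for a log2 ratio of 0.06 (0.01 to 0.10), and in Ptbp1-KO the intervals of rods and cones overlapped. In rods the log2 ratio was −0.12 with TMM scaling, and 0.08 after thinning, which also left out 4155 of 10058 and 3126 of 9301 rods with fewer than 1000 UMIs. Each of the 4 rod clusters was lower in Ptbp1-KO, with counting intervals below 0, at 7100 and 6508 CPM in cluster 0, where the level was highest, and 1842 and 1447 CPM in cluster 3, where it was lowest. Cluster 0 held 4614 of 10058 rods in Ptbp1-Ctrl and 5462 of 9301 in Ptbp1-KO. At 1000 UMIs a Dmd UMI was present in 88.4% and 91.9% of rods.

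BC and AC showed lower Dmd in Ptbp1-KO. BC stood at 1967 and 1691 CPM, for a log2 ratio of −0.22 (−0.25 to −0.19), with 7 of 10 clusters lower. AC stood at 970 and 788 CPM, for a log2 ratio of −0.30 (−0.38 to −0.22), which was −0.04 after thinning. These AC levels were 18.9% and 15.7% of the rod level, where rod markers in AC stood at 16.2% to 19.2% and 15.7% to 19.2%. BC lay higher, at 38.3% and 33.6% of the rod level, above all 6 rod markers in both libraries. Within BC the level spanned from 484 CPM in cluster 19 to 4116 CPM in cluster 18 of Ptbp1-Ctrl, and from 463 to 4198 CPM in the same clusters of Ptbp1-KO. That span between clusters was far wider than the difference between libraries.

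In MG Dmd stood at 828 CPM (805 to 852) and 695 CPM (672 to 718), for a log2 ratio of −0.25 (−0.32 to −0.19). These levels were 16.1% and 13.8% of the rod level, inside the range of the rod markers in both libraries. The genes most like Dmd over the 10 sums were Crx (r of 0.997), Igsf9 (0.994) and Unc119 (0.993). Crx encodes a photoreceptor transcription factor, and Unc119 a photoreceptor trafficking protein.

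Dtna, alpha-dystrobrevin, binds dystrophin and carries syntrophins of its own. It was highest in MG, at 414 CPM (398 to 431) in Ptbp1-Ctrl against 418 CPM (400.1 to 436) in Ptbp1-KO, with a log2 ratio of 0.01 (−0.07 to 0.10). AC followed at 169 and 161 CPM, above BC, cones and rods, and in neither library did the intervals of neighbours in that order overlap. In BC it stood at 44.2 and 36.9 CPM, for a log2 ratio of −0.26 (−0.46 to −0.06). Dtna was higher in Ptbp1-KO in 7 of the 10 BC clusters, with 0 counting intervals above 0. It was lower in 3, with 2 intervals below 0. In cluster 5, the main BC cluster, it gave 9 and 20 UMIs, and the log2 ratio of 0.88 had an interval of −0.32 to 2.20.

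Dag1 encodes dystroglycan, the receptor for laminin. It lies on the minus strand at chr9:108204634-108263958. In MG it stood at 84.5 CPM (77.2 to 92.2) in Ptbp1-Ctrl against 116 CPM (107 to 126) in Ptbp1-KO (log2 ratio 0.45, 0.28 to 0.63). After Sntg1 this was the next highest ratio among the members in MG, and it ranged from 0.44 to 0.50 over the alternatives. In cluster 4 it stood at 85.6 and 118 CPM. Clusters 16 (34 and 37 UMIs) and 22 (36 and 26 UMIs) held too few UMIs to tell the libraries apart. In rods, cones, BC and AC, with Dag1 between 34.1 and 63.1 CPM, all 4 intervals of the log2 ratio included 0. The cone value went from 0.20 to 0.90 with thinned cells.

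Aqp4, the glial water channel, stood at 658 CPM (637 to 679) in Ptbp1-Ctrl MG against 673 CPM (651 to 696) in Ptbp1-KO MG, with a log2 ratio of 0.03 (−0.03 to 0.10). Kcnj10, the inward rectifier through which MG clear potassium, stood at 288 CPM (275 to 302) and 302 CPM (287 to 318), with a log2 ratio of 0.07 (−0.03 to 0.17). The intervals of the libraries overlap for both channels. The counting intervals leave room for log2 differences of up to 0.10 for Aqp4 and 0.17 for Kcnj10. MG held 96.0% and 94.9% of the Aqp4 UMIs of the 5 cell types, and 96.3% and 95.6% of those of Kcnj10.

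Outside MG few UMIs of the channels were counted, and each level was set beside the 5 MG markers. In rods Aqp4 was at 0.548% and 0.482% of its MG level, where MG markers were at 0.412% to 1.28% and 0.399% to 1.16%. AC held 32 and 38 Aqp4 UMIs (16.4 and 9.85 CPM), at 2.49% and 1.46% of the MG level, below all 5 MG markers in both libraries. In BC Aqp4 was at 1.21% and 1.35% of its MG level, with 1 of the 5 markers at or above it in each library. Kcnj10 lay within the range of the markers in rods, BC and AC of both libraries, and in Ptbp1-Ctrl cones it was at 1.39%, above all 5. The part of MG RNA in these levels was not tested. Cones gave 7 Kcnj10 UMIs in the control and 0 in the knockout, which allows up to 2.10 CPM. The genes most like Kcnj10 over the 10 sums were Pdgfrb (r of 0.999), F3 (0.998) and S100a16 (0.998). Sntb1 (0.975) and Aqp4 (0.987) were close to Kcnj10 too, whereas Sntg1 was not (0.307).

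A fold of 1.5 was used to count genes, among those with at least 50 UMIs over both libraries of a cell type. In MG 1 of the 9 members, Sntg1, was past it on the higher side, where 4.64% of 12080 genes were, and 0 were past it on the lower side, where 3.11% of all genes were. The higher member is the one the choice fixed. The other 8 had a median log2 ratio of −0.06 with 4 above and 4 below 0, beside a median of −0.00 over all genes tested. In rods 1 of 9 members (Sntg1) was higher, against 8.95% of all genes, and 0 were lower, against 1.37%. The call of Sntg1 in rods was lost at a fold of 2. In cones 5 members had enough UMIs, and 0 were past the fold on either side, against 4.29% higher and 3.19% lower. In BC 0 of 8 members passed, against 3.53% and 2.07%, although Sntb1 (30 and 21 UMIs) was past the lower fold with TMM scaling. In AC 0 of 8 were higher (3.89% of all genes) and 1 was lower (2.95%), Aqp4, whose level there lay below the MG markers as given above. That call was lost at a minimum of 200 UMIs and at a fold of 2.

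The wider complex was read from lists of 51 further genes, of which 40 had enough UMIs in MG. Of these 40, 26 had a log2 ratio above 0 and 14 below, with a median of 0.11, beside −0.00 over all genes tested in MG. The share of all genes above 0 was not counted. The fold was passed by 4 of the 40 on the higher side and by 0 on the lower side, where 4.64% and 3.11% of all genes passed it. The 4 were Sgcd, Sgcz, Lama2 and Nrxn2, and at a minimum of 200 UMIs Lama2 alone remained. Sgcd gave 22 and 34 UMIs in MG (3.73 and 6.69 CPM), against 381 and 367 CPM in AC. The 5 AC markers set beside Sntg1 were each higher in Ptbp1-KO MG too. Tfap2a stood at 0.677 and 1.57 CPM there, and Slc6a9 at 7.96 and 9.24 CPM. The part of AC RNA in the Sgcd level of MG was not tested.

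Sarcoglycans and sarcospan, membrane partners of dystroglycan, had 5 of 7 genes with enough UMIs in MG, all 5 above 0, with a median of 0.47. Among the 5 is Sgcd, whose low MG level was set beside AC above and whose part of AC RNA was not tested. The interval of Sspn, from −0.20 to 1.15, included 0. Sgcz stood highest, with 32 UMIs in the control and 66 in the knockout, for a log2 ratio of 1.26 (0.63 to 1.92), and Sgce lowest, at 63.0 and 79.8 CPM (0.34, 0.14 to 0.55). In rods 4 genes of this list had enough UMIs and all 4 were above 0, with a median of 0.50. The median over all genes tested in rods was 0.07. The rod interval of Sgcb, from −0.10 to 0.44, included 0. Sgcd stood at 5.68 and 11.7 CPM in rods, against 381 and 367 CPM in AC, and the part of AC RNA there was not tested. For this list the split above and below 0 was 3 and 1 in BC, 2 and 2 in AC, and 1 and 1 in cones.

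Among the 11 counted matrix and synaptic ligands of dystroglycan, Lama2 stood highest, at 59.9 CPM in Ptbp1-Ctrl against 100.5 CPM in Ptbp1-KO (log2 ratio 0.75, 0.55 to 0.94). This laminin chain is a main ligand of dystroglycan. Egflam, which encodes pikachurin, the ligand at the photoreceptor ribbon synapse, stood lowest, at 69.3 and 50.1 CPM (−0.47, −0.70 to −0.24). Rod markers in MG were lower in Ptbp1-KO as well, at 6238 and 4868 CPM. The part of photoreceptor RNA in the Egflam level of MG was not tested.

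Of the 12 counted enzymes that build the laminin-binding sugar on dystroglycan, 9 were above and 3 below 0. Rxylt1, at 41.8 and 60.6 CPM (log2 ratio 0.53, 0.29 to 0.78), was highest, and B3galnt2, at 13.9 and 10.6 CPM (−0.39, −0.91 to 0.13), was lowest. Dystrophin relatives gave Dtnb at 107 and 129 CPM (0.27, 0.11 to 0.43) and Utrn at 144 and 133 CPM (−0.12, −0.27 to 0.03).

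The 8 counted intracellular partners were split 4 and 4, from Plec (15.7 and 17.9 CPM, log2 ratio 0.18) to Mast1 (6.26 and 5.31 CPM, −0.24), both with intervals that include 0. Of the other glial channels Aqp9 stood at 10.2 and 12.2 CPM and Aqp1 at 13.9 and 11.6 CPM, and neither was told apart between the libraries. Kcnj2, Kcnj13 and Kcnj16 had fewer than 50 UMIs in MG.

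**Figure D4:**
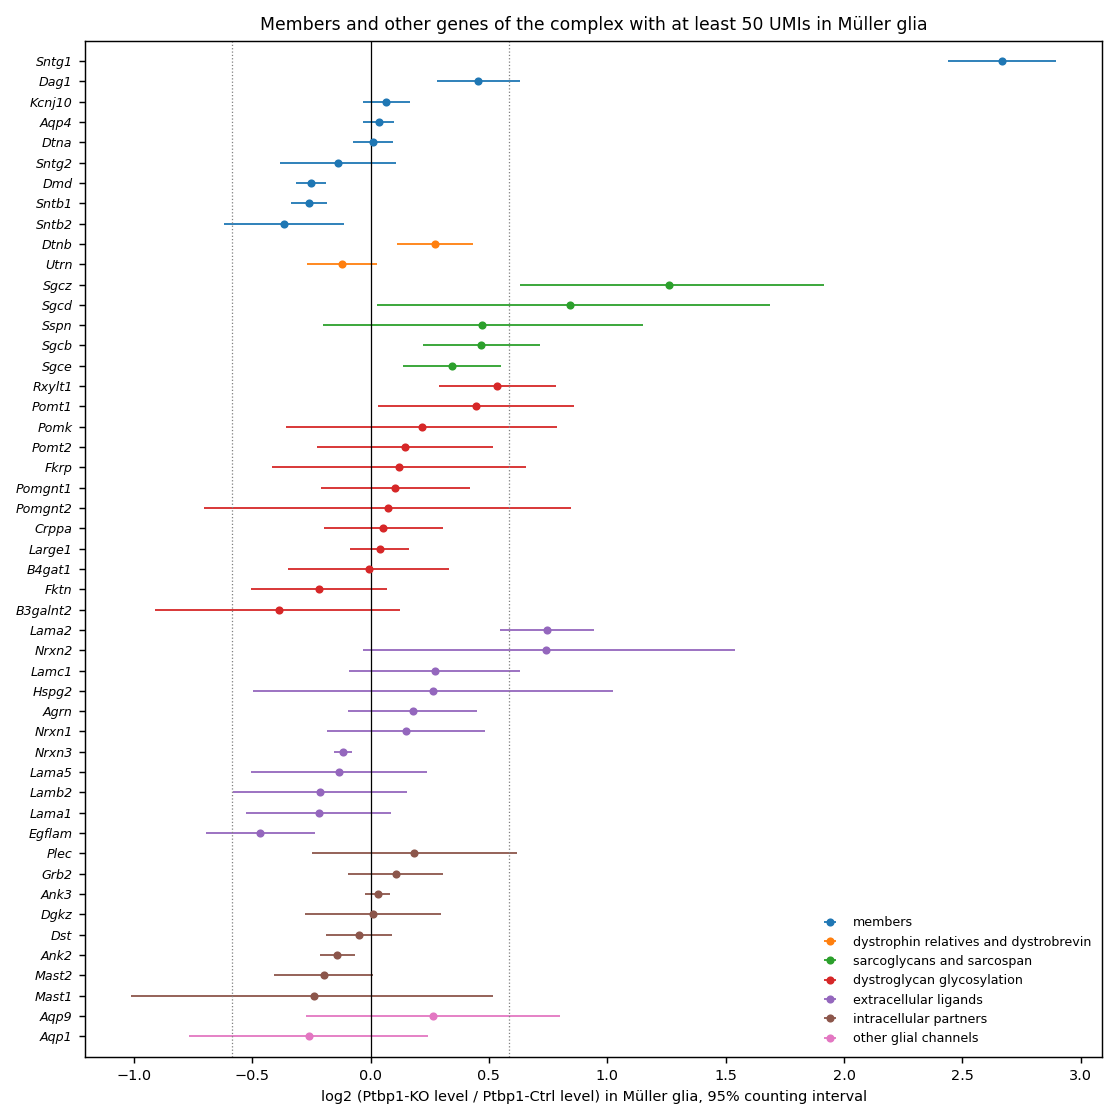
Log2 ratio (Ptbp1-KO over Ptbp1-Ctrl) in Müller glia with 95% counting intervals, for the 9 members and the 40 other genes of the complex with at least 50 UMIs, coloured by list and sorted within it. Dotted lines mark a fold of 1.5. Sntg1 lies at 2.67, Dag1 at 0.45, and the other 7 members between −0.36 and 0.07. All 5 genes of the sarcoglycan and sarcospan list lie above 0, as do 26 of all 40 other genes.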

How the data were processed

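Per the labels, reads were processed by the authors with Cell Ranger 7.0.1 on mm10, then with Seurat 4. The gene annotation and the treatment of intronic reads were not given in the sources used here. The deposited table holds raw UMI counts per gene and cell. The deposited cell table gives totals, clusters, cell type names and the percent of mitochondrial UMIs of each cell, as the authors computed it. Their filter kept 200 to 5000 genes, 700 to 10000 UMIs and under 20% mitochondrial UMIs, and all 30943 cells met it. A further 2 columns of the cell table were not used. Summed over genes, the counts of every cell gave its deposited total.

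UMIs were summed per cell type and library (Python 3.11.15, numpy 2.4.6, scipy 1.17.1) and given as CPM with exact Poisson intervals. Log2 ratios have exact conditional binomial intervals, and shares of cells have Clopper-Pearson intervals. The study's Wilcoxon test treats cells as replicates and was not used. With 1 library per genotype no test was run, and no p-value is given. Depth was 32758836 and 35328593 UMIs. RGC and HC, with under 1000000 UMIs in a library, are given as counts of UMIs only. No doublet caller was run. Instead the 10% of cells of a type with the largest share of other types' markers were left out as an alternative. Other alternatives were TMM scaling (edgeR 4.0.16), thinning, equal weight per cell, subtraction of free RNA (estimated from rod markers, or from MG markers in rods), leaving out the deepest 10% of cells, the main cluster alone, and other minimum counts or folds. The ratio and thinning code was tested on simulated data.

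The members and gene lists were chosen with earlier results of these data known. Named genes are the 9 members, the targeted gene and its paralog, the highest and lowest gene of each list in MG, and the 3 genes most like Sntg1, Kcnj10 and Dmd. Positions and coding bases come from GENCODE M21. Of the listed genes of the complex, 1 is not reported here and entered no count.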

Additional observations from a re-analysis of the deposited data

Results flagged for a closer look

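For 2 members the log2 ratio of Ptbp1-KO over Ptbp1-Ctrl had opposite signs in different cell types, with counting intervals off 0. With 1 library per genotype the difference was not tested. Sntb2 had a log2 ratio of 0.083 in rods, against −0.40 in AC and −0.36 in MG. The rod value became −0.01 with TMM scaling and 0.02 in the main rod cluster. In each of the 4 rod clusters the counting interval included 0. Dmd had a log2 ratio of 0.057 in cones, against −0.30 in AC, −0.25 in MG, −0.22 in BC and −0.03 in rods. The cone value was 0.02 with TMM scaling. With thinned cells the value was −0.04 in AC, −0.19 in MG, −0.15 in BC and 0.08 in rods. Both genes were highest in photoreceptors, and rod markers in AC summed to 6787 CPM in Ptbp1-Ctrl against 6188 CPM in Ptbp1-KO. With the estimated free RNA subtracted, Sntb2 in AC had a log2 ratio of −2.41. No ratio could be formed for Dmd in AC, or for either gene in MG.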

How the results depend on the processing

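No paired analysis was possible because there was 1 library per genotype. Over the 9 members in MG, 60 alternative values were computed, of which 56 stayed within the counting interval and 4 moved outside it, and 8 had the other sign, all for ratios near 0. Sntg1 moved to 3.28 and Aqp4 to −0.034 with free RNA subtracted, Dmd to −0.19 with thinned cells, and Dtna to −0.073 with equal weight per cell. The causes were not tested. Sntg2, Sntb2 and Dmd gave no value in MG after subtraction. The percent of MG with a Sntg1 UMI was 7.38 and 44.0 without thinning, by the greater depth. Of the other genes of the complex, 1 was higher past the fold in MG at a minimum of 200 UMIs and 1 at a fold of 2, against 4. Outside MG, 157 of 194 values stayed within the interval and 37 moved, and 20 had the other sign. Counts of UMIs limit all values, and genes under 50 UMIs over both libraries entered no count past the fold. Replicates and batches cannot be weighed with 1 animal per genotype. Sex cannot be weighed either, since both libraries held Y-linked UMIs (Uty 6164 and 7085) and 5 and 6 UMIs of Xist.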
